A study of Mus musculus with 24 samples.

Results

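The comparison described here sets cultured mouse microglia given a mixture of 4 cytokines against the same kind of culture given TNFa alone. It rests on 6 of the 24 libraries of an RNA-seq study of lupus-prone mice: 3 mixture libraries and 3 TNFa libraries, chosen by the treatment named in their labels. The mixture held IFNg, IL-6, IFNa and TNFa. At an equal TNFa dose, the difference between the groups is the response to the interferons and IL-6 in cells that also received TNFa. All of the microglia came from neonatal MRL/lpr mice, a strain that carries the lpr mutation of the death receptor gene Fas and develops lupus-like disease. Brains were digested with enzymes, CD11b-positive cells were selected with magnetic beads, and the cells were cultured for 48 h before 6 h with cytokine. Cultures given IFNg, IFNa or IL-6 alone and unstimulated cultures, 3 libraries of each, were made the same way and served as comparisons. Doses are not in the labels, so it is not known whether a cytokine was given at the same dose alone and in the mixture. The labels do not say whether replicates came from separate animals. The p-values measure the spread left between cultures after replicate number is fitted as a block, pooled over the 6 neonatal groups. That spread may be partly technical.

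TNFa is an inflammatory cytokine that acts through the receptors encoded by Tnfrsf1a and Tnfrsf1b and switches on genes through the transcription factor family NF-kappaB, including inhibitors that then restrain NF-kappaB. IFNa and IFNg act through separate receptors and JAK kinases. IFNa assembles the factor ISGF3, which binds the interferon-stimulated response element (ISRE), whereas IFNg acts through factors that bind gamma-activated sequences (GAS). IL-6 signals through the receptor chain encoded by Il6st to STAT3 and induces the feedback inhibitor gene Socs3. Microglia are the resident macrophages of the brain, and they lose part of their resident gene programme when they are cultured or exposed to inflammatory signals.

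The 6 libraries held between 14867764 and 19316994 counted reads, and the 18 neonatal libraries between 10084927 and 19316994. Levels are given below as CPM, the counts scaled to a common library total, and differences on the log2 scale as mixture minus TNFa with the standard error (SE) of the fit. The labelled cell type was checked against defining microglial markers. Csf1r stood at 1472, 1996 and 2264 CPM in the mixture libraries and at 2214, 2901 and 3309 CPM in the TNFa libraries, while Tmem119 did not exceed 1.17 CPM in the mixture and 29.7 CPM in TNFa. Marker sums were scaled by the plain library total, whereas single-gene levels also use a scaling factor for each library (TMM). Those factors were 0.759 to 0.906 in the mixture and 0.968 to 1.168 in TNFa, so plain totals place the mixture lower relative to TNFa. Summed markers of microglia ranged from 9270 to 10600 CPM in the mixture and from 12400 to 13700 CPM in TNFa. With the TMM scaling, 4 of the 12 microglial markers were called higher in the mixture and 3 lower (median 0.15). Summed T cell markers ranged from 27.9 to 73.2 CPM in the mixture and from 7.71 to 15 CPM in TNFa, with Cd3d, Cd3e, Cd8a and Cd8b1 at 0 in every mixture library and Lck higher in the mixture by 4.84. Summed NK cell markers ranged from 44.3 to 101 CPM in the mixture and from 1.11 to 13.7 CPM in TNFa, with Ncr1, Klrb1c, Klre1 and Gzmb at 0 in every mixture library and Klrk1 higher by 4.50. Border macrophage sums ranged from 1100 to 1360 CPM in the mixture and from 1800 to 1970 CPM in TNFa, with 2 of 9 tested members called lower and 1 higher. Mural cell and fibroblast sums (116 to 553 and 159 to 678 CPM) and astrocyte sums (50 to 396 and 44.5 to 412 CPM) overlapped between mixture and TNFa. Neutrophil sums (196 to 200 and 139 to 213 CPM) and monocyte sums (131 to 224 and 170 to 270 CPM) did so too. Summed endothelial markers ranged from 132 to 165 CPM in the mixture and from 28.4 to 50.6 CPM in TNFa, and summed oligodendrocyte markers from 279 to 321 CPM in the mixture and from 105 to 137 CPM in TNFa. Of those 2 lists, Flt1 (3.40), Kdr (3.04) and Cnp (2.95) passed the test as higher and Mbp (-1.13) as lower. In bulk RNA, fewer cells of a type and less RNA per cell cannot be told apart, and the part of these markers in the results below was not tested.

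The mixture differed from TNFa alone in 37% of the genes tested. Of 14626 genes, 2614 (17.9%) were higher and 2800 (19.1%) lower in the mixture than in TNFa at an edgeR adjusted p under 0.05. The larger changes lay more often upward, with 1268 genes (8.67%) higher by at least 2-fold and 936 (6.4%) lower by at least 2-fold. The split depended on the scaling: 48.3% of the called genes were higher with the scaling used here, against 23.2% (1664 higher and 5516 lower) when libraries were scaled by total counts alone, which moved the median of all genes by -0.343. Below, a list whose balance turns under total-count scaling is given with both counts. Counts of list members are to be read beside the shares of all genes tested, 17.9% higher and 19.1% lower. List counts under total-count scaling are to be read beside 1664 higher and 5516 lower of all 14626 genes, so an even split there is not the split of all genes. TNFa alone changed 17.4% of the genes tested relative to unstimulated cultures, with 1313 (8.98%) higher and 1229 (8.4%) lower. That comparison uses the same TNFa libraries as the mixture comparison, so the 2 sets of values are given side by side and not correlated.

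The chemokines that bind CXCR3, a receptor of activated T cells and NK cells, were the most strongly added group, and all 3 were higher in the mixture (median 7.45, against -0.03 over all genes tested). Cxcl9 (chr5:92321347-92328079, minus strand of mm10) had 2375, 656 and 1976 CPM in the mixture libraries, against 1.09, 0.386 and 1.12 CPM in the TNFa libraries. Every mixture library lay far above every TNFa library, the second mixture replicate being the lowest of its group. The log2 difference was 10.97 (SE 1.03, edgeR adjusted p = 9.08e-06). Cxcl11 had 1019, 901 and 1397 CPM in the mixture and 2.04, 2.7 and 18.9 CPM in TNFa, a log2 difference of 7.45 (SE 0.70, adjusted p = 8.7e-06). Cxcl10 had 3416, 3533 and 2794 CPM in the mixture and 66.3, 100.2 and 383 CPM in TNFa, a log2 difference of 4.32 (SE 0.77, adjusted p = 0.0011). TNFa alone had already raised Cxcl10 over the unstimulated level, by 6.70 (adjusted p = 0.000549), and Cxcl11 by 4.21 (adjusted p = 0.0148), and the call for Cxcl9 was not reached (2.82, adjusted p = 0.467).

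Promoter letters of 4 genes that the results turn on are shown because they hold the elements named above: Cxcl10 and Socs1 were higher in the mixture, Cxcl2 was lower, and Nfkbia was called in neither direction. Each line is the 250 bases before the RefSeq start, 5′ to 3′ on the strand of the gene, from GRCm38.p6, and capitals mark matches of the ISRE letters in Cxcl10 and Socs1 and of the kappaB letters in Cxcl2 and Nfkbia.
Cxcl10: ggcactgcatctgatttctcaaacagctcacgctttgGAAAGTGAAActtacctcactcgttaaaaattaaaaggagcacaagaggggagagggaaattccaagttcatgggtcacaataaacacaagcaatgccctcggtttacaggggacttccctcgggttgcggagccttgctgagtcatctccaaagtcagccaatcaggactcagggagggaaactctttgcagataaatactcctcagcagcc
Socs1: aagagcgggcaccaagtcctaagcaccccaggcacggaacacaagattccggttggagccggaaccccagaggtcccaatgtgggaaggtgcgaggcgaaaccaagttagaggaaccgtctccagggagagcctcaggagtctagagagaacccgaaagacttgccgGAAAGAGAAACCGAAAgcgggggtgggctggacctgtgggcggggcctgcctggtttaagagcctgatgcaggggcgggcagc
Cxcl2: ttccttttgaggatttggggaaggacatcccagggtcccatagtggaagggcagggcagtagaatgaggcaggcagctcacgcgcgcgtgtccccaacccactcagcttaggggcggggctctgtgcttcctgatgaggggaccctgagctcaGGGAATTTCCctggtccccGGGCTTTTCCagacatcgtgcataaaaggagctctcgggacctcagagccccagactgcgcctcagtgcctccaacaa
Nfkbia: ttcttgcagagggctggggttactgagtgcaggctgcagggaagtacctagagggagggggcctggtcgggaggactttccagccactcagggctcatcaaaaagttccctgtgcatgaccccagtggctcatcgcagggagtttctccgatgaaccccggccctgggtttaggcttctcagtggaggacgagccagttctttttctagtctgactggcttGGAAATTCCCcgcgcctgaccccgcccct
The Cxcl10 window is chr5:92348890-92349139 on the minus strand, and its ISRE match lies 213 to 204 bases before the start. The Socs1 window is chr16:10785537-10785786 on the minus strand, with overlapping matches at 83 to 74 and at 77 to 68 bases before the start. The Cxcl2 window is chr5:90903649-90903898 on the plus strand, with kappaB matches at 97 to 88 and at 78 to 69 bases. The Nfkbia window is chr12:55492648-55492897 on the minus strand, and its kappaB match, at 29 to 20 bases, reads on the opposite strand. Searched on both strands, the ISRE letters (GAAA, any 2 bases, GAAA) occurred in 2.98% of 32851 RefSeq mouse windows of this length, the GAS letters (TTC, any 3 bases, GAA) in 7.02% and the kappaB letters (GGG, any 2 bases, TTTCC) in 1.41%. The Cxcl9 window held none of the 3 motifs. Only these letters were searched for, so other forms of the same elements stay in lower case. Bases in lower case therefore do not show that an element is absent. A match is a run of letters and not evidence that a factor was bound.

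**Figure D1:**
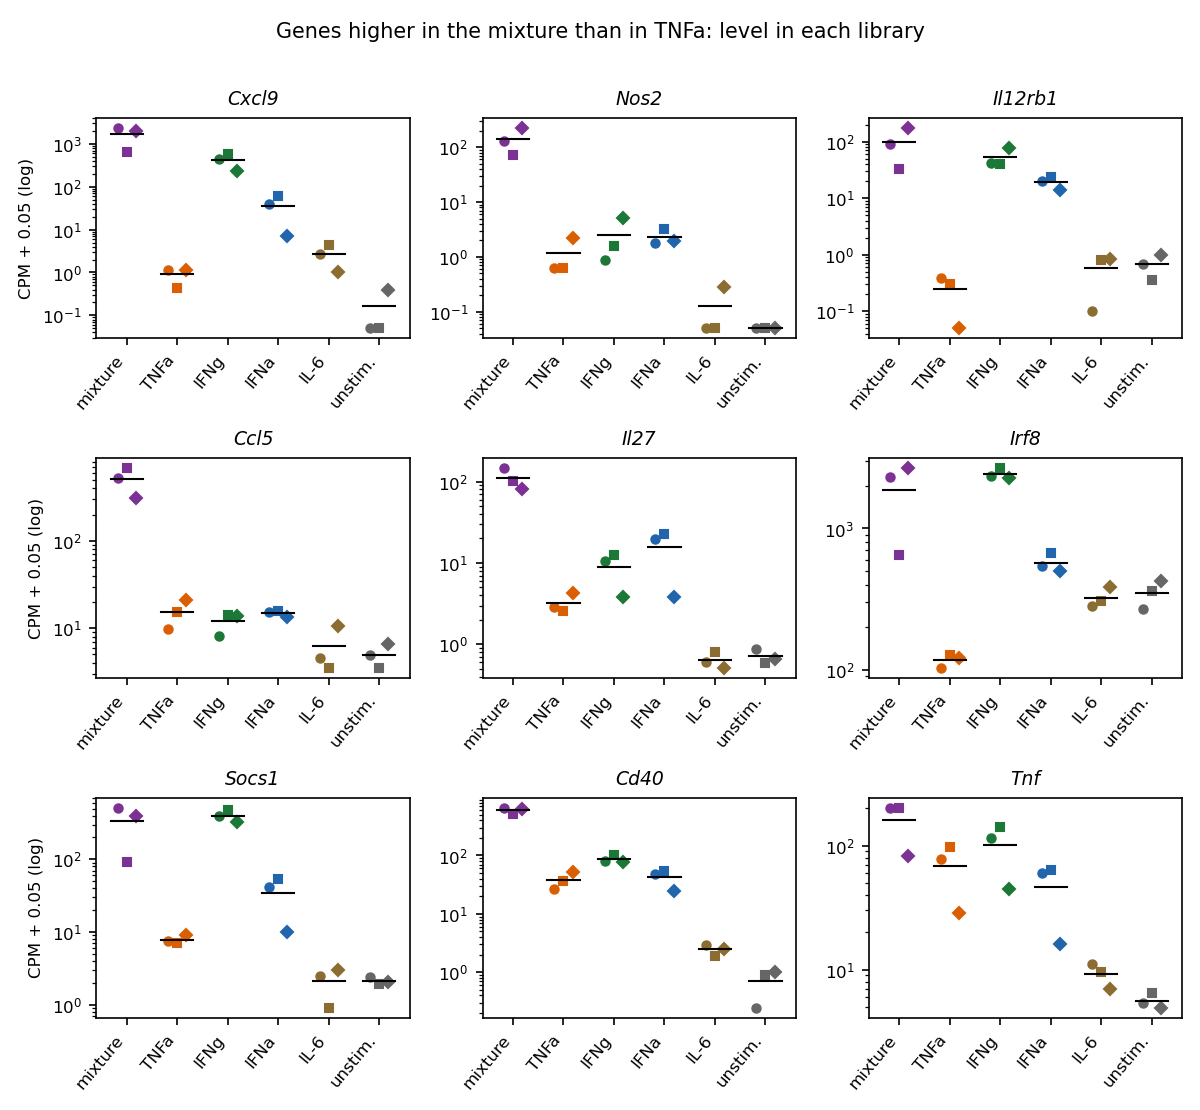
Level of 9 genes that were higher in the mixture than in TNFa, in each of 18 libraries; the vertical axis is CPM plus 0.05 on a log scale, circles, squares and diamonds are replicates 1, 2 and 3, and the black line is the group mean. Cxcl9 lies between 656 and 2375 CPM in the mixture and at or below 1.12 CPM in TNFa, and Ccl5 lies between 309 and 688 CPM in the mixture with group means of 12 CPM in IFNg and 14.9 CPM in IFNa.

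CC chemokines, which attract monocytes and T cells, followed the same direction: 7 of 11 tested members were higher and 1 lower (median 3.1). Ccl5 (chr11:83525778-83530518), a chemoattractant of T cells and monocytes, had 531, 688 and 309 CPM in the mixture and 9.69, 15.26 and 21.2 CPM in TNFa. The groups did not overlap, and the log2 difference was 5.12 (SE 0.44, edgeR adjusted p = 3.15e-06). No cytokine given alone brought Ccl5 near that level, with means of 12 ± 3.33 CPM in IFNg, 14.9 ± 1.27 CPM in IFNa and 6.20 ± 3.83 CPM in IL-6 (SD, n = 3 each). Ccl12 averaged 434 ± 120 CPM in the mixture and 6.85 ± 2.84 CPM in TNFa, and Ccl7 averaged 156 ± 19.5 CPM in the mixture and 6.25 ± 3.07 CPM in TNFa. Both are monocyte attractants; Ccl12 is close in sequence to Ccl2, so its counts could be shared with that gene. The lower member was Ccl9, at -0.26 (adjusted p = 0.0415), and that call was lost without mixture replicate 1 or 3, without TNFa replicate 1 or 3, with DESeq2 (adjusted p = 0.0822), with size-factor scaling (0.0847) and in a fit of only the groups compared (0.105).

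Interferon-inducible GTPases, which attack the vacuoles of intracellular parasites and bacteria, were higher in all 18 of the 18 tested members (median 4.41). Iigp1 had 1023, 295 and 1075 CPM in the mixture and 0.570, 1.54 and 6.79 CPM in TNFa. Gbp4 had 727, 299.7 and 854 CPM in the mixture and 0.665, 0.837 and 7.75 CPM in TNFa. In the mixture the second replicate was the lowest library for both genes, and over the list it lay a median of 0.69 below the other replicates, with 0 of 18 members above them. In TNFa the third replicate lay a median of 1.62 above the other replicates, with 18 of 18 members above them. For Gbp4, replicate 3 was also the highest in unstimulated (0.838, 0.422 and 3.15 CPM) and IL-6 cultures (1.87, 0 and 6.27 CPM), but not in IFNg or IFNa alone. Gbp10 and Gbp11 had no read in the 3 TNFa libraries and 481 and 231 reads in the 3 mixture libraries, which makes them at least 213-fold and at least 102-fold higher against a floor of 3 counts over the TNFa group; both bounds lie above the list's median, which is the same with the 2 genes at their bounds. Gbp10 is nearly identical to Gbp6, and Tgtp1 (70.0 ± 33.9 CPM in the mixture, 0.428 ± 0.490 CPM in TNFa) to Tgtp2, so the split of reads within each pair is uncertain.

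Type I interferon-stimulated genes were higher in 42 of 44 tested members, none was lower, and the median was 2.49; 4 of the 44 were higher and none lower in TNFa over unstimulated cultures (median 0.60). Rsad2, the antiviral protein viperin, had 10770, 11950 and 9289 CPM in the mixture and 128, 173 and 940 CPM in TNFa. Cmpk2, a mitochondrial nucleotide kinase encoded beside Rsad2, had 9812, 11070 and 7286 CPM in the mixture and 94.0, 133 and 638 CPM in TNFa. The third TNFa replicate was the highest of its group for both, and no TNFa library reached a mixture library. Over the list, that TNFa library lay a median of 1.56 above the other TNFa replicates, with 42 of 44 members above them. Replicate 3 was also the highest for Rsad2 in unstimulated (45.7, 53.1 and 265 CPM) and IL-6 cultures (31.1, 51.7 and 157 CPM). For Cmpk2 the same held (52.4, 66.7 and 214 CPM, and 28.4, 33.0 and 124 CPM). In IFNg alone replicate 3 was the highest too, for Rsad2 (403, 423.5 and 863 CPM) and for Cmpk2 (428, 495.5 and 663.5 CPM). In IFNa alone and in the mixture, replicate 3 was the lowest for both genes. Log2 differences were 5.32 for Rsad2 (SE 0.77, edgeR adjusted p = 0.000256) and 5.53 for Cmpk2 (SE 0.79, adjusted p = 0.000217). Isg20, an exonuclease, was higher by 4.57 (SE 0.38, adjusted p = 1.53e-06).

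Among the regulators of interferon signalling, 12 of 19 tested STAT, IRF and SOCS genes were higher and none lower (median 1.48). Socs1 (chr16:10782240-10785536), a feedback inhibitor of JAK kinases, had 514, 92.2 and 393 CPM in the mixture and 7.37, 7.08 and 8.93 CPM in TNFa. Its second mixture replicate was the lowest of the 3 but remained above every TNFa library, and the log2 difference was 5.36 (SE 0.73, edgeR adjusted p = 0.000162). Irf8 (chr8:120736358-120756694), a transcription factor that microglia need, had 2306, 651 and 2688 CPM in the mixture, 103, 128 and 121 CPM in TNFa, and 267, 361 and 423 CPM in unstimulated cultures. TNFa alone had lowered Irf8 (-1.57, adjusted p = 0.0196), and the mixture stood 3.98 above TNFa (SE 0.44, adjusted p = 2.98e-05). Irf1, a transcription factor induced by interferons, had 1280, 418 and 1355 CPM in the mixture and 122, 167 and 231 CPM in TNFa, a log2 difference of 2.56 (SE 0.38, adjusted p = 0.000263).
Of the STAT genes, Stat2 was higher by 1.53 (adjusted p = 1.28e-05) and Stat3 by 2.35 (adjusted p = 5.3e-10). TNFa alone left both uncalled, Stat2 at 0.46 and Stat3 at -0.11 relative to unstimulated cultures. Irf7 was higher by 1.41 (adjusted p = 0.000726) and Batf2 by 4.14 (adjusted p = 3.14e-05), while Irf9 was not called (0.14, adjusted p = 0.491).

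Of 12 tested genes of cytokine receptors and JAK kinases, 5 were higher and 2 lower (median 0.06), or 4 higher and 5 lower under total-count scaling. Jak2 (1.53, adjusted p = 1.03e-07) and Jak3 (1.31, adjusted p = 8.21e-08) were among the higher ones. Ifngr1, the ligand-binding chain of the IFNg receptor, had 25.8, 38.3 and 28.4 CPM in the mixture and 129.8, 159 and 150.2 CPM in TNFa. Every mixture library lay below every TNFa library, with a log2 difference of -2.25 (SE 0.15, edgeR adjusted p = 2.05e-09). Ifnar1, a chain of the type I interferon receptor, had 94.7, 154 and 111 CPM in the mixture and 247, 299 and 254 CPM in TNFa, a difference of -1.17 (SE 0.12, adjusted p = 5.47e-07). The partner chains were not called, with Ifngr2 at -0.24 (adjusted p = 0.0639; called lower without mixture replicate 2, with limma-voom, with a filter of at least 1 CPM in 3 libraries, and under total-count scaling, at -0.587) and Ifnar2 at 0.04 (adjusted p = 0.819; -0.31 under total-count scaling). Ifngr1 was also lower in IFNg alone (-1.49, adjusted p = 5.23e-07) and in IFNa alone (-1.75, adjusted p = 7.76e-08) than in unstimulated cultures. Of the IL-6 receptor chains, Il6ra (0.08, adjusted p = 0.646) and Il6st (0.03, adjusted p = 0.927) were not called in the mixture against TNFa, and TNFa alone had lowered both, Il6ra at -0.92 (adjusted p = 1.54e-05) and Il6st at -1.50 (adjusted p = 2.66e-06) relative to unstimulated cultures. Tnfrsf1a, the widely expressed TNF receptor, was higher in the mixture: 424, 431 and 439 CPM against 153, 190.2 and 224 CPM in TNFa, a difference of 1.20 (SE 0.13, adjusted p = 5.13e-07). Tnfrsf1b had 375, 1197 and 534 CPM in the mixture and 909.5, 1175 and 1218 CPM in TNFa; it was not called (-0.70, adjusted p = 0.0833) and the second mixture replicate lay within the TNFa range. Tnfrsf1b was called lower without that library (adjusted p = 5.48e-08), with limma-voom, and under total-count scaling (adjusted p = 0.0159).

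Most genes of the NF-kappaB system were raised by TNFa alone. Of 18 tested subunits and feedback inhibitors, 16 were higher in TNFa than in unstimulated cultures (median 1.62), and in the mixture against TNFa 10 were higher and 2 lower (median 0.41), or 6 higher and 6 lower under total-count scaling. Nfkbia, the inhibitor IkappaBalpha, had 468, 659 and 415 CPM in the mixture, 545, 648 and 582 CPM in TNFa, and 52.9, 59.0 and 59.7 CPM in unstimulated cultures. The mixture and TNFa overlapped and the difference did not pass the test (-0.23, SE 0.13, edgeR adjusted p = 0.203). Nfkb2 (-0.14, adjusted p = 0.335) and Relb (0.01, adjusted p = 0.947) of the noncanonical branch were not called either; under total-count scaling Nfkb2 and Nfkbia were called lower (adjusted p = 0.00088 and 0.00102) and Relb was at -0.33. Nfkb1 was higher by 0.70 (SE 0.11, adjusted p = 6.33e-05) and Nfkbib, encoding IkappaBbeta, by 1.1 (adjusted p = 4.94e-07). Zc3h12a, an RNase that degrades inflammatory mRNAs, was higher by 1.35 (adjusted p = 3.1e-06) and Nfkbiz, an atypical IkappaB, by 1.13 (adjusted p = 0.000696). Tnfaip3, the deubiquitinase A20, had 266, 250 and 324 CPM in the mixture and 157, 199 and 204 CPM in TNFa, a difference of 0.60 (adjusted p = 0.0125) that missed the threshold without mixture replicate 3, TNFa replicate 1 or TNFa replicate 2 and under total-count scaling. The 2 lower members were partners of A20: Tnip1 had 65.0, 91.1 and 107 CPM in the mixture and 157, 204 and 198 CPM in TNFa (-1.11, SE 0.18, adjusted p = 0.000144), and Tnip3 was at -1.07 (adjusted p = 0.0159), a call lost without mixture replicate 1, mixture replicate 2 or TNFa replicate 1.

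Genes of TNF receptor signalling and survival were higher in 11 and lower in 3 of 24 tested members (median 0.43), or 8 higher and 8 lower under total-count scaling. Bcl2l1, which encodes the survival factor Bcl-xL, was higher by 1.59 (SE 0.11, edgeR adjusted p = 4.93e-09), the kinase gene Map3k8 by 1.77 (adjusted p = 4.24e-07) and the adaptor gene Traf5 by 1.56 (adjusted p = 6.35e-06). The lower members were Map3k14, the NIK kinase (-1.39, adjusted p = 0.0014), Map3k7, the TAK1 kinase (-0.57, adjusted p = 0.000392), and Ikbkg, the regulatory subunit NEMO, whose call was lost without mixture replicate 1, mixture replicate 2 or TNFa replicate 2 and in a fit of only the groups compared. Birc3, an inhibitor of apoptosis induced 3.51 by TNFa alone, had 149, 159.5 and 171 CPM in the mixture and 134, 151 and 204 CPM in TNFa (-0.02, adjusted p = 0.945); it was chosen after its values were seen.
Fas, whose lpr mutation all of these cells carry, had 10.1, 4.88 and 7.85 CPM in the mixture and 2.95, 2.19 and 2.03 CPM in TNFa. The difference of 1.60 (SE 0.60, adjusted p = 0.0447) was near the threshold, and the call was lost without any of the 3 mixture libraries, without TNFa replicate 1 or 3, and under total-count scaling (1.25, adjusted p = 0.102).

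Ikbke (chr1:131254343-131279606, minus strand), the kinase IKKepsilon named in the study's title, had 228, 304 and 301 CPM in the mixture, 162, 194 and 221 CPM in TNFa, and 5.87, 6.63 and 9.67 CPM in unstimulated cultures. The mixture libraries lay above the TNFa libraries, and all 6 lay far above the unstimulated ones. TNFa alone raised Ikbke by 4.70 (SE 0.21, edgeR adjusted p = 1.76e-10), and the mixture stood another 0.53 above TNFa (SE 0.17, adjusted p = 0.0227). That step missed the threshold without mixture replicate 2 (adjusted p = 0.0557), TNFa replicate 1 (0.0787) or TNFa replicate 2 (0.0851), and was 0.19 under total-count scaling (adjusted p = 0.382). Given alone against unstimulated cultures, IFNg raised Ikbke by 2.55 (adjusted p = 1.33e-07), IFNa by 1.56 (adjusted p = 1.9e-05) and IL-6 by 1.08 (adjusted p = 0.00405). Of 23 tested genes of the TBK1-IKKepsilon axis, 19 were higher in the mixture than in TNFa and 1 lower (median 1.40), and in TNFa over unstimulated cultures 6 were higher and 1 lower. The related kinase gene Tbk1 (chosen after its values were seen) was higher in the mixture by 0.72 (adjusted p = 0.000273). Among the nucleic-acid sensors, Tlr9 was higher by 3.48 (adjusted p = 8.75e-11), Ifih1, encoding MDA5, by 3.14 (adjusted p = 0.000165) and Zbp1 by 3.13 (adjusted p = 4.66e-05). Mavs, the adaptor downstream of MDA5, was the lower member (-0.73, adjusted p = 0.000173).

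TNF-inducible inflammatory genes parted ways. TNFa alone raised 23 of 31 tested members and lowered 1 (median 3.20), and in the mixture against TNFa 11 were higher, 10 lower and 10 not called (median 0.24), or 10 higher and 13 lower under total-count scaling. Among the higher members, Mmp13, a collagenase, had 3604, 1920 and 4793 CPM in the mixture and 35.8, 45.1 and 81.3 CPM in TNFa, a log2 difference of 6.05 (SE 0.49, edgeR adjusted p = 2.58e-06). Il27, whose product pairs with Ebi3 to form interleukin 27, had 148, 102 and 81.7 CPM in the mixture and 2.80, 2.51 and 4.28 CPM in TNFa, a difference of 5.01 (SE 0.49, adjusted p = 5.35e-06). Both genes lay higher in every mixture library than in any TNFa library. Il6 was higher by 3.87 (SE 0.98, adjusted p = 0.0047) at low levels of 5 ± 3.49 CPM in the mixture and 0.305 ± 0.0843 CPM in TNFa. Tnf itself had 203, 202 and 82.5 CPM in the mixture and 77.9, 98.1 and 28.6 CPM in TNFa. Its groups overlapped, with replicate 3 low in both, and within each replicate number the mixture was higher; the difference was 1.31 (SE 0.24, adjusted p = 0.000702).

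**Figure D2:**
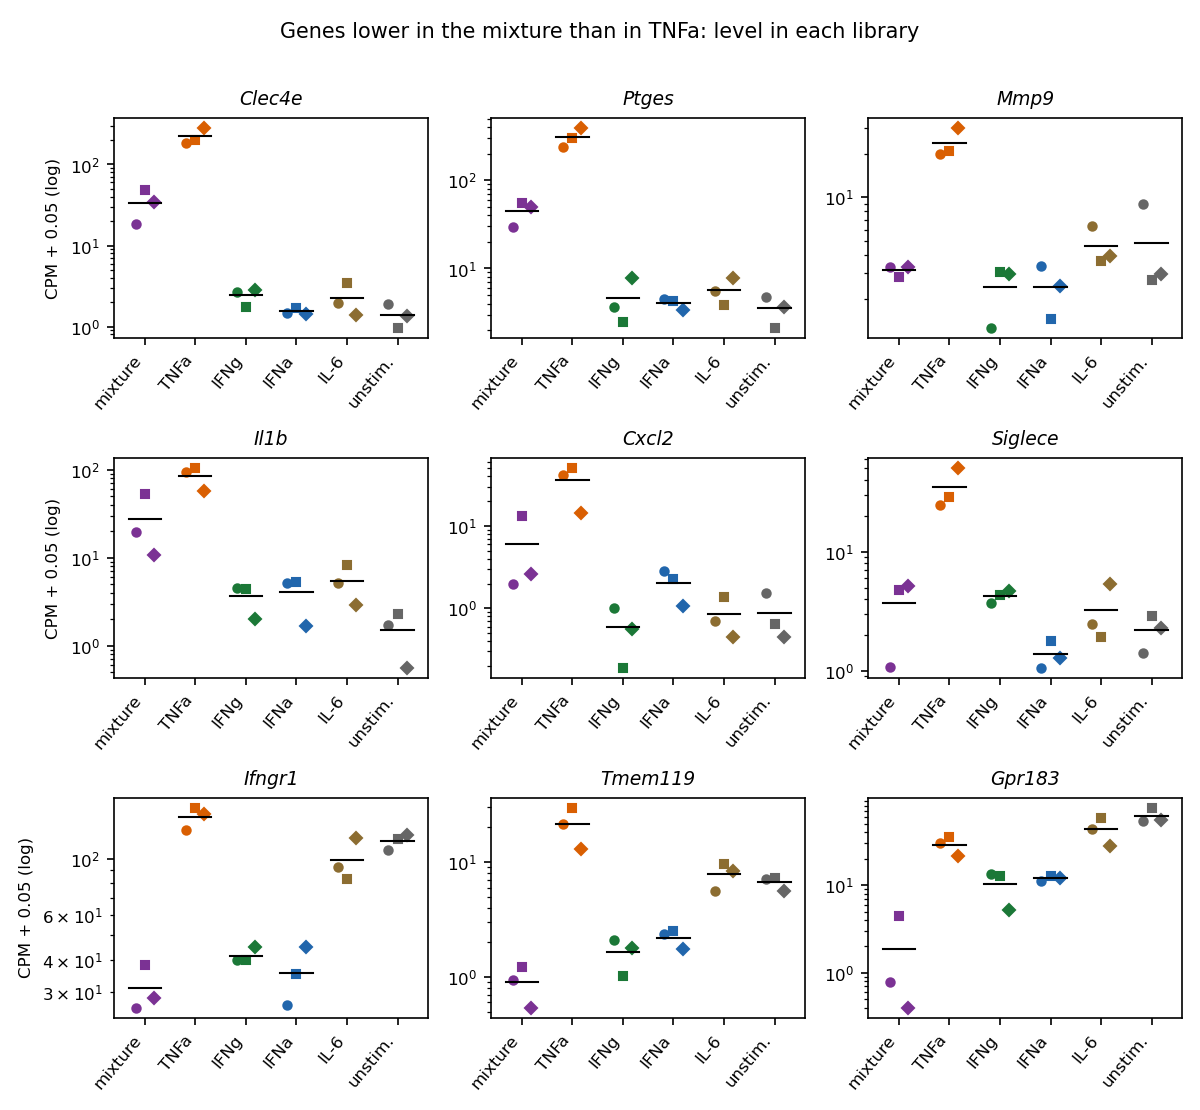
Level of 9 genes that were lower in the mixture than in TNFa, in each of 18 libraries; the vertical axis is CPM plus 0.05 on a log scale, circles, squares and diamonds are replicates 1, 2 and 3, and the black line is the group mean. Clec4e lies between 18.6 and 47.8 CPM in the mixture, between 182 and 283 CPM in TNFa and at or below 1.87 CPM in unstimulated cultures.

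The largest decreases within the list of TNF-inducible inflammatory genes were those of Clec4e, Ptges and Mmp9. Clec4e (chr6:123281789-123289870), the receptor Mincle for mycobacterial glycolipid and dying cells, had 18.6, 47.8 and 34.3 CPM in the mixture, 182, 202 and 283 CPM in TNFa, and 1.87, 0.904 and 1.29 CPM in unstimulated cultures. The mixture lay between the TNFa and the unstimulated libraries without overlap, with a log2 difference from TNFa of -2.76 (SE 0.29, edgeR adjusted p = 5.77e-06). Ptges (chr2:30889471-30929863), the inducible synthase of prostaglandin E, had 29.1, 55.7 and 49.6 CPM in the mixture, 236, 298 and 393 CPM in TNFa, and 4.71, 2.05 and 3.65 CPM in unstimulated cultures, a difference from TNFa of -2.76 (SE 0.32, adjusted p = 2.14e-05). Mmp9, a gelatinase, had 3.27, 2.77 and 3.26 CPM in the mixture, 20, 20.8 and 30.1 CPM in TNFa, and 8.90, 2.65 and 2.92 CPM in unstimulated cultures. For Mmp9 the mixture libraries lay within or near the unstimulated range, and the difference from TNFa was -2.94 (SE 0.42, adjusted p = 3.07e-05). Given alone, none of IFNg, IFNa and IL-6 was called as lowering these 3 genes below the unstimulated level, with differences between -0.97 and 0.83. Their unstimulated means were already low, at 1.36 CPM for Clec4e, 3.47 CPM for Ptges and 4.82 CPM for Mmp9, which left little room for a decrease.
Il1b, encoding interleukin 1 beta, had 19.3, 52.7 and 10.6 CPM in the mixture and 94.7, 105 and 57.4 CPM in TNFa, a difference of -1.86 (SE 0.24, adjusted p = 8.19e-06). Of the neutrophil-attracting and other CXC chemokines, 4 of 9 tested members were lower and 2 higher, or 4 lower and 0 higher under total-count scaling. Cxcl2 had 1.93, 13.26 and 2.57 CPM in the mixture and 41.6, 51.0 and 14.4 CPM in TNFa, so its highest mixture library came close to its lowest TNFa library; the difference was -2.63 (SE 0.55, adjusted p = 0.00156). Cxcl3 was lower, at -4.20 (SE 0.98, adjusted p = 0.00262) at 0.594, 0 and 0.625 CPM in the mixture and 5.61, 6.63 and 4.44 CPM in TNFa. Cxcl1 (-2.24, adjusted p = 0.046) lost its call without mixture replicate 2 or 3, without any TNFa library and with size-factor scaling. The 2 higher members were small changes, Cxcl14 at 0.34 and Cxcl16 at 0.32, which stood at -0.01 and -0.03 under total-count scaling.

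Over all genes, the largest decreases among the more abundant ones included further TNFa-induced genes. H2-M2, a nonclassical MHC class I gene, had 4.01, 12.24 and 3.89 CPM in the mixture, 71.9, 92.8 and 69.5 CPM in TNFa, and 2.45, 2.29 and 1.74 CPM in unstimulated cultures (mixture minus TNFa -3.63, SE 0.48, edgeR adjusted p = 5.5e-05). Siglece, an inhibitory sialic acid receptor, had 1.04, 4.74 and 5.14 CPM in the mixture, 24.4, 28.5 and 50.4 CPM in TNFa, and 1.35, 2.83 and 2.25 CPM in unstimulated cultures (-3.30, SE 0.35, adjusted p = 7.88e-07). In both genes the mixture lay near the unstimulated libraries and far below TNFa. Il4i1, a secreted amino acid oxidase, was lower, at -3.42 (adjusted p = 1.11e-05), as was Mturn, at -3.49 (adjusted p = 3.98e-08). Treml4, used here also as a monocyte marker, was lower, at -3.38 (adjusted p = 0.000839). Relative to unstimulated cultures, TNFa alone had lowered Gpr183 (-1.12, adjusted p = 0.0447) and left Sesn1 uncalled (-0.39, adjusted p = 0.533). Gpr183, an oxysterol receptor that guides immune cells, had 0.742, 4.37 and 0.347 CPM in the mixture, 30.1, 35.2 and 21.7 CPM in TNFa, and 53.5, 76.6 and 55.6 CPM in unstimulated cultures (-4.09, SE 0.46, adjusted p = 1.29e-05). Sesn1, a p53-responsive regulator of metabolism, had 4.45, 8.23 and 7.29 CPM in the mixture and 73.0, 78.2 and 57.1 CPM in TNFa (-3.42, SE 0.40, adjusted p = 2.91e-05).
At the other end, Il12rb1, a chain of the receptors for interleukins 12 and 23, had 92.4, 32.7 and 176 CPM in the mixture and 0.333, 0.258 and 0 CPM in TNFa, a difference of 8.80 (SE 0.82, adjusted p = 5.98e-06). Serpina3g, an inhibitor of cathepsin proteases, was higher by 8.67 (SE 0.78, adjusted p = 5.46e-06) and Serpina3f by 7.81 (SE 0.55, adjusted p = 6.53e-08); these neighbours are similar in sequence, so reads could be shared between them.

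Effector enzymes were higher in 8 and lower in 3 of 17 tested members (median 1.06). Nos2 (chr11:78920787-78960254), the inducible nitric oxide synthase, had 131, 70.7 and 226 CPM in the mixture, 0.570, 0.579 and 2.19 CPM in TNFa, and no read in unstimulated cultures. The lowest mixture library was above every other library of the study's single-cytokine groups, whose means were 2.46 ± 2.26 CPM in IFNg, 2.27 ± 0.744 CPM in IFNa and 0.0767 ± 0.133 CPM in IL-6 (SD, n = 3 each). The log2 difference from TNFa was 7.04 (SE 0.51, edgeR adjusted p = 1.46e-06). Ch25h, which makes 25-hydroxycholesterol, had 438, 317 and 462 CPM in the mixture and 17.7, 21.1 and 24.8 CPM in TNFa, a difference of 4.26 (SE 0.59, adjusted p = 0.000162). Acod1, the source of itaconate, had 3473, 3481 and 4244 CPM in the mixture, 390.5, 524 and 942 CPM in TNFa, and 1.93, 0.663 and 3.32 CPM in unstimulated cultures, a difference from TNFa of 2.65 (SE 0.48, adjusted p = 0.0011). Slc7a11, the cystine transporter, was among the lower members: 63.0, 56.5 and 52.0 CPM in the mixture, 229, 272 and 357 CPM in TNFa, and 29.4, 29.5 and 25.2 CPM in unstimulated cultures (-2.30, SE 0.27, adjusted p = 1.68e-05). Hmox1, haem oxygenase, was lower, at -1.21 (adjusted p = 3.79e-07).

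Of 19 tested genes of MHC class I and peptide loading 15 were higher in the mixture, 4 were not called and none was lower (median 1.61), and all 5 immunoproteasome genes were higher (median 1.95). Nlrc5, the transactivator of class I genes, had 252, 246 and 389 CPM in the mixture and 8.27, 13.8 and 34.3 CPM in TNFa, a log2 difference of 4.1 (SE 0.34, edgeR adjusted p = 1.54e-06). Tap1, a subunit of the peptide transporter, had 1099, 982 and 1183 CPM in the mixture and 75.8, 105 and 238 CPM in TNFa (3.08, SE 0.34, adjusted p = 2.03e-05). The catalytic immunoproteasome subunits Psmb9 (2.54, adjusted p = 2.23e-09), Psmb10 (1.97, adjusted p = 4.54e-08) and Psmb8 (1.95, adjusted p = 2.94e-08) stood higher without overlap. Of 10 tested MHC class II genes 2 were higher and none lower (median 0.45), a higher share near the 17.9% of all genes tested. Cd74, the invariant chain, had 39.4, 43.4 and 48.9 CPM in the mixture and 38.3, 56.6 and 46.6 CPM in TNFa (-0.08, adjusted p = 0.747). Ciita, the class II transactivator, was called higher (4.47, SE 1.19, adjusted p = 0.0109) on 5.64, 0.146 and 5.42 CPM in the mixture and 0.238, 0.193 and 0 CPM in TNFa, with the second mixture library inside the TNFa range. Cd74 and Ciita were chosen after their values were seen.
Costimulatory and checkpoint genes were higher in 13 and lower in 2 of 21 tested members (median 2.37). Cd40 (chr2:165055627-165072948), the receptor through which T cells license antigen-presenting cells, had 661, 504 and 615 CPM in the mixture, 27.0, 36.8 and 52.5 CPM in TNFa, and 0.193, 0.844 and 0.956 CPM in unstimulated cultures. The 3 groups lay at separate levels, and the mixture exceeded TNFa by 3.94 (SE 0.35, adjusted p = 2.47e-06). Tnfsf10, the death ligand TRAIL, was higher by 4.89 (SE 0.72, adjusted p = 0.000285) and Slamf8 by 4.26 (SE 0.52, adjusted p = 6.3e-05). The lower members were Icosl, the ligand of ICOS (-1.05, adjusted p = 0.00331) and Vsir, the checkpoint VISTA (-0.55, adjusted p = 0.0146), the call for Vsir being lost without mixture replicate 3, TNFa replicate 1 or TNFa replicate 2.

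Inflammasome and cell death genes were higher in 19 and lower in 1 of 22 tested members (median 1.73), whereas TNFa alone had raised 8 and lowered 1. Il1rn, the antagonist of the interleukin 1 receptor, had 1197, 868 and 1850 CPM in the mixture and 35.8, 41.5 and 71.2 CPM in TNFa, a log2 difference of 4.73 (SE 0.33, edgeR adjusted p = 3.68e-07). Beside it, Il1b was lower in the mixture, as given above. Mlkl, the executioner of necroptosis, was higher by 3.61 (SE 0.35, adjusted p = 5.16e-06) and Daxx by 2.54 (SE 0.32, adjusted p = 5.62e-05). Bcl2l11, the proapoptotic protein Bim, was the lower member at -1.33 (SE 0.31, adjusted p = 0.00462). Nlrp3 (chosen after its values were seen), a sensor gene that TNFa alone had raised by 3.11, had 305, 470.1 and 285 CPM in the mixture and 342, 416 and 433 CPM in TNFa and was not called (-0.19, adjusted p = 0.342).

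Targets of STAT3, the factor that IL-6 activates, were higher in 12 and lower in 2 of 20 tested members (median 0.80), or 7 higher and 4 lower under total-count scaling. Fgl2 had 1073, 909 and 2641 CPM in the mixture and 13, 12.1 and 44.5 CPM in TNFa, a log2 difference of 6.13 (SE 0.24, edgeR adjusted p = 2.57e-10). Fgl2 was raised by 5.57 in IFNg alone, 5.32 in IFNa alone and 2.27 in IL-6 alone. Socs3, the IL-6 feedback inhibitor, had 77.8, 95.2 and 128 CPM in the mixture, 43.3, 48.5 and 39.4 CPM in TNFa, and 7.48, 0.844 and 2.08 CPM in unstimulated cultures. Its mixture and TNFa libraries did not overlap, but the difference of 1.24 (SE 0.46) had an adjusted p of 0.0557. It passed without mixture replicate 1 (adjusted p = 0.0378), with limma-voom (0.0041), in a fit of only the groups compared (0.00348) and with size-factor scaling (0.0492). The lower members were Fos (-1.70, SE 0.19, adjusted p = 3.25e-06), an immediate early gene that TNFa had raised by 1.90, and Myc (-1.03, SE 0.17, adjusted p = 6.57e-05).

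**Figure D3:**
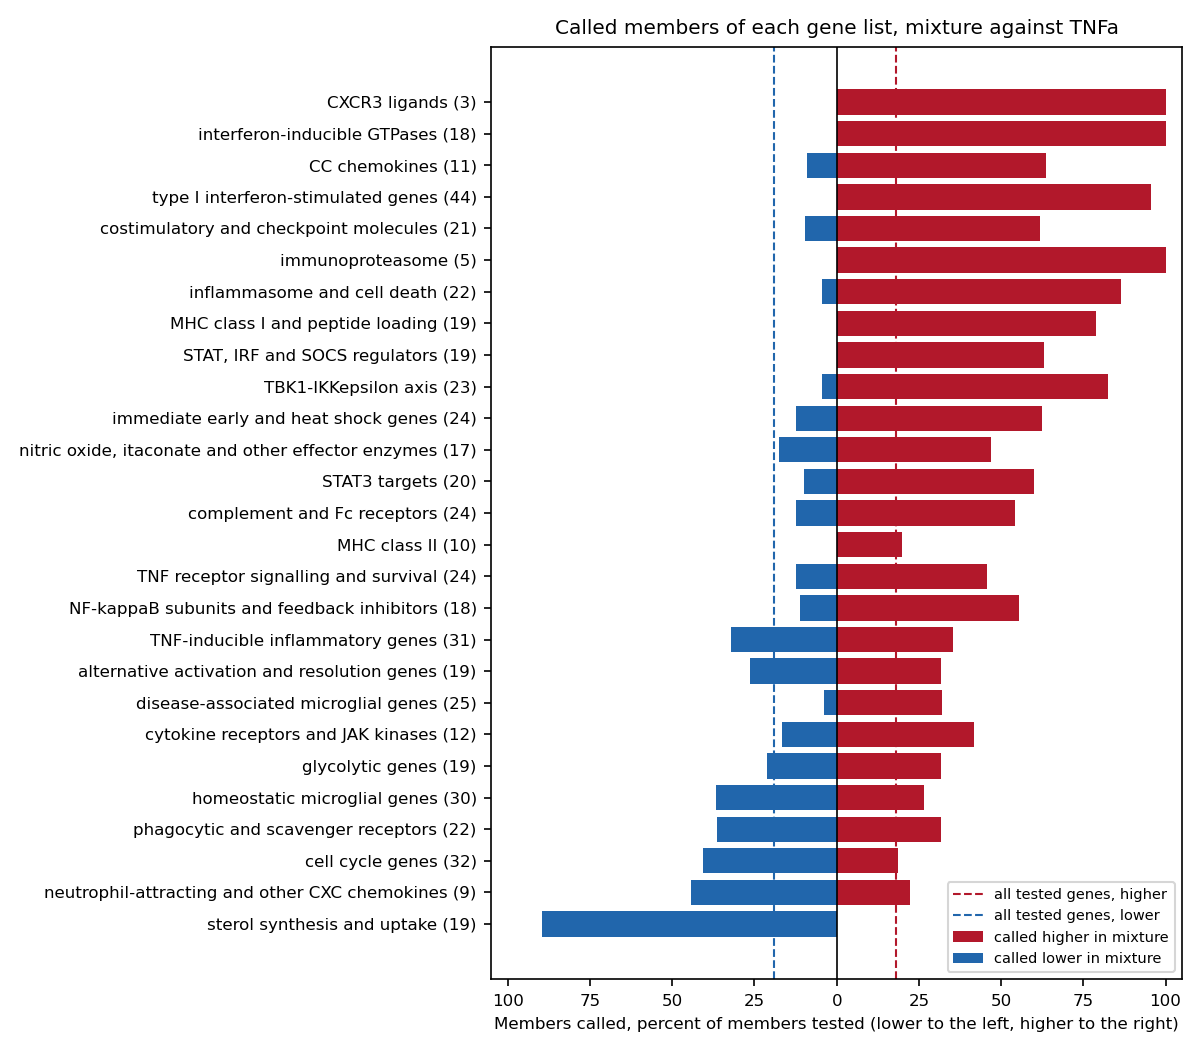
Share of the tested members of each of 27 gene lists that were called higher (bars to the right) or lower (bars to the left) in the mixture than in TNFa, in percent of the members tested, whose number stands in parentheses; dashed lines mark the shares over all tested genes, 17.9% higher and 19.1% lower. Interferon-inducible GTPases and CXCR3 ligands reach the right-hand end, and sterol synthesis genes extend to the left with no member called higher.

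Sterol synthesis and uptake was the list with the most one-sided decrease: 17 of 19 tested members were lower in the mixture than in TNFa and none was higher (median -0.98). TNFa alone had moved the list the other way, raising 15 and lowering none (median 0.55). Mvd, mevalonate diphosphate decarboxylase, had 8.39, 10.9 and 3.40 CPM in the mixture, 32.7, 30.7 and 25.5 CPM in TNFa, and 19.7, 17.1 and 13.7 CPM in unstimulated cultures. Its 3 mixture libraries lay below all unstimulated ones, which lay below all TNFa ones, and the mixture differed from TNFa by -2.01 (SE 0.24, edgeR adjusted p = 2.9e-06). Sqle, squalene epoxidase, had 32.7, 32.1 and 16.4 CPM in the mixture and 99.0, 98.8 and 66.2 CPM in TNFa (-1.73, SE 0.13, adjusted p = 8.24e-09). Given alone, IFNa lowered Mvd (-1.09, adjusted p = 0.00199) and Sqle (-0.72, adjusted p = 0.00026), while IFNg left both uncalled. In the mixture the third replicate lay a median of 0.63 below the other replicates over the list. The cholesterol exporters diverged: Abca1 had 89.7, 233 and 104 CPM in the mixture and 588, 733 and 1071 CPM in TNFa (-2.42, SE 0.38, adjusted p = 0.000386), and Abcg1 had 336, 341 and 491 CPM in the mixture and 60.4, 97 and 140 CPM in TNFa (2.03, SE 0.17, adjusted p = 2e-07). Nr1h3, the oxysterol receptor LXRalpha that drives both, was lower, at -1.32 (SE 0.22, adjusted p = 0.000186).

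**Figure D4:**
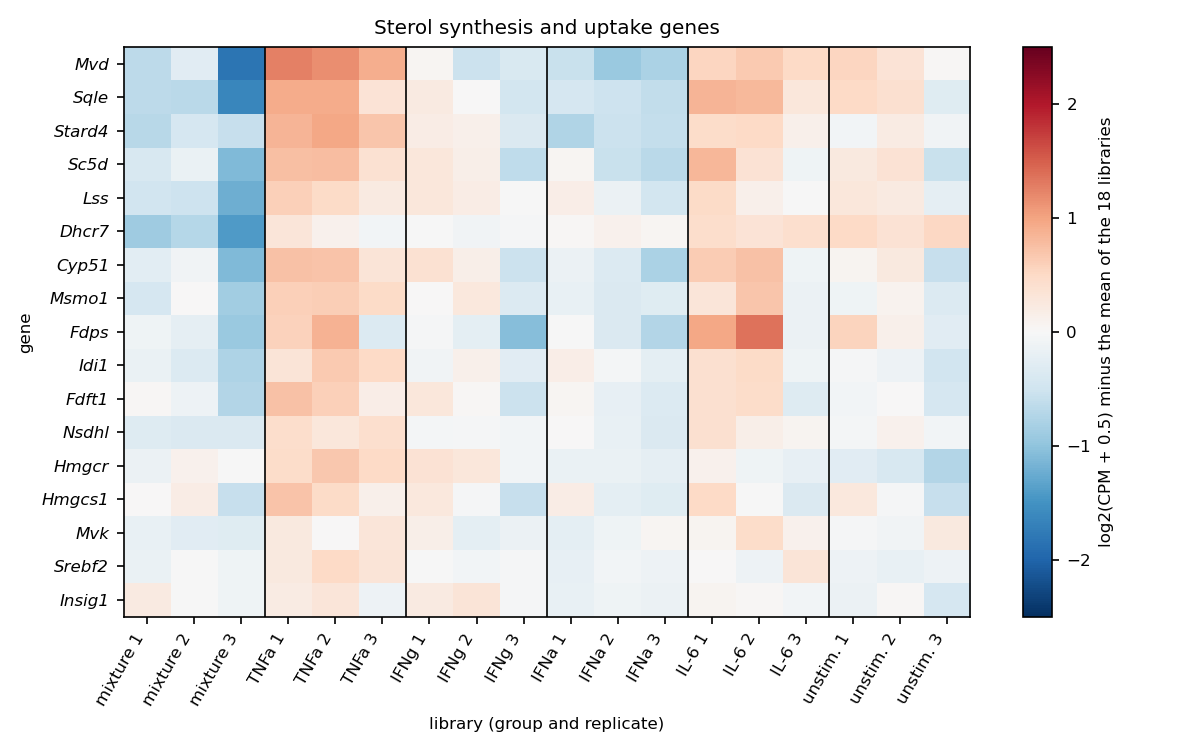
Heat map of 17 of the 19 tested sterol synthesis and uptake genes (rows) in 18 libraries (columns, mixture first and unstimulated last); colour is log2 of CPM plus 0.5 minus the mean of the 18 libraries, red above and blue below the mean. The 3 TNFa columns are mostly red and the 3 mixture columns mostly blue, 16 of the 17 genes shown being called lower in the mixture.

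Genes of the resident microglial programme moved in both directions. Of 30 tested homeostatic genes 8 were higher and 11 lower in the mixture than in TNFa (median -0.18), or 5 higher and 16 lower under total-count scaling; TNFa alone had raised 2 and lowered 17 (median -0.64). The purinergic receptor P2ry12 had 47.3, 44.4 and 59.8 CPM in the mixture, 4.09, 6.05 and 8.66 CPM in TNFa, and 15.5, 26.2 and 24.4 CPM in unstimulated cultures. All mixture libraries exceeded all unstimulated ones, which exceeded all TNFa ones, and the mixture differed from TNFa by 3.04 (SE 0.19, edgeR adjusted p = 1.02e-09). Its neighbour P2ry13 was higher by 4.01 (SE 0.40, adjusted p = 7.67e-06) and the phagocytic receptor gene Mertk by 1.76 (SE 0.15, adjusted p = 5.81e-08). Tmem119 (chr5:113793729-113800516), a membrane protein that marks microglia, took the opposite course: 0.891, 1.17 and 0.486 CPM in the mixture, 21.3, 29.7 and 13 CPM in TNFa, and 7.09, 7.24 and 5.51 CPM in unstimulated cultures. The difference from TNFa was -4.62 (SE 0.36, adjusted p = 1.65e-08). The fractalkine receptor gene Cx3cr1 had 110.1, 285 and 111 CPM in the mixture and 762, 1041 and 903 CPM in TNFa (-2.45, SE 0.32, adjusted p = 8.46e-05), and Mef2c was lower, at -1.41 (SE 0.14, adjusted p = 1.82e-07). Both P2ry12 and Tmem119 are homeostatic markers, and their differences from TNFa had opposite signs.
Genes reported in disease-associated microglia were higher in 8 and lower in 1 of 25 tested members (median 0.11), or 5 higher and 13 lower under total-count scaling. Cst7, a cystatin, had 59.3, 49.8 and 53.7 CPM in the mixture and 3.71, 4.83 and 6.63 CPM in TNFa (3.43, SE 0.44, adjusted p = 2.89e-05), and the growth factor gene Igf1 was the lower member (-0.88, SE 0.10, adjusted p = 1.32e-06). Apoe and Trem2, chosen after their values were seen, were not called, at -0.07 (adjusted p = 0.798) and 0.12 (adjusted p = 0.308).
Phagocytic and scavenger receptors were higher in 7 and lower in 8 of 22 tested members, or 2 higher and 12 lower under total-count scaling. The lipopolysaccharide coreceptor gene Cd14 had 436, 784 and 482 CPM in the mixture and 1342, 1661 and 1577 CPM in TNFa (-1.47, SE 0.11, adjusted p = 1.21e-08), while Timd4, a receptor for phosphatidylserine, was higher by 5.22 (SE 0.62, adjusted p = 9.68e-06).

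Complement and Fc receptor genes were higher in 13 and lower in 3 of 24 tested members (median 0.57). Fcgr4, an activating IgG receptor, had 543, 364 and 898 CPM in the mixture and 22.6, 33.8 and 74.2 CPM in TNFa (3.87, SE 0.24, edgeR adjusted p = 4.35e-08). Serping1, the C1 inhibitor, had 60.4, 13.5 and 83.7 CPM in the mixture and 0.903, 1.16 and 0.856 CPM in TNFa (5.66, SE 0.71, adjusted p = 5.15e-05). C5ar1, the receptor for the anaphylatoxin C5a, was lower, at -1.47 (SE 0.32, adjusted p = 0.00293). Cell cycle genes were higher in 6 and lower in 13 of 32 tested members (median -0.38), or 5 higher and 20 lower under total-count scaling. Over all genes tested 17.9% were higher and 19.1% lower, so the share of cell cycle genes called higher was near that of all genes. Ccnd1, cyclin D1, had 418, 452 and 978 CPM in the mixture and 175, 191 and 250 CPM in TNFa (1.51, SE 0.16, adjusted p = 2.25e-06), and the proliferation marker Mki67 was lower, at -0.88 (SE 0.18, adjusted p = 0.000842). Glycolytic genes were higher in 6 and lower in 4 of 19 tested members (median -0.03), or 4 higher and 11 lower under total-count scaling, with Pfkfb3, which makes the activator of phosphofructokinase, higher by 2.16 (SE 0.16, adjusted p = 2.6e-08). Immediate early and heat shock genes were higher in 15 and lower in 3 of 24 tested members (median 1.12). Alternative activation genes were higher in 6 and lower in 5 of 19, or 4 higher and 6 lower under total-count scaling.

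What each cytokine did alone was then set beside the mixture, since the comparisons of IFNg, IFNa and IL-6 with unstimulated cultures share no library with the mixture and TNFa groups. IFNa alone changed 25.4% of the genes tested (2093 higher and 1619 lower), IFNg alone 23.7% (2156 higher and 1312 lower) and IL-6 alone 4.88% (444 higher and 270 lower). The IL-6 count of 714 genes fell to 321 without unstimulated replicate 2, 360 without unstimulated replicate 3, 421 without unstimulated replicate 1, 429 without IL-6 replicate 2 and 459 without IL-6 replicate 1. Of the 2614 genes higher in the mixture than in TNFa, 1718 were higher in IFNa alone (65.7% of the mixture list and 82.1% of the IFNa list), 1479 in IFNg alone (56.6% and 68.6%) and 229 in IL-6 alone (8.76% and 51.6%). At least 1 of the 3 cytokines raised 2010 of them (76.9%), against 20.7% of all genes tested. Of the 2800 genes lower in the mixture, 1161 were lower in IFNa alone (41.5% of the mixture list and 71.7% of the IFNa list), 829 in IFNg alone (29.6% and 63.2%) and 101 in IL-6 alone (3.61% and 37.4%). At least 1 cytokine alone lowered 1371 of them (49%), against 15.1% of all genes tested. Genes lower in the mixture but higher in a cytokine alone numbered 119 for IFNg, 15 for IFNa and 77 for IL-6. Genes higher in the mixture but lower in a cytokine alone numbered 47 for IFNg, 36 for IFNa and 56 for IL-6. Across the 14626 genes, which are not independent replicates, the log2 differences had a Pearson r of 0.57 with those of IFNg, 0.662 with IFNa and 0.156 with IL-6 (Spearman rho 0.467, 0.588 and 0.163), as a description of these libraries.

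**Figure D5:**
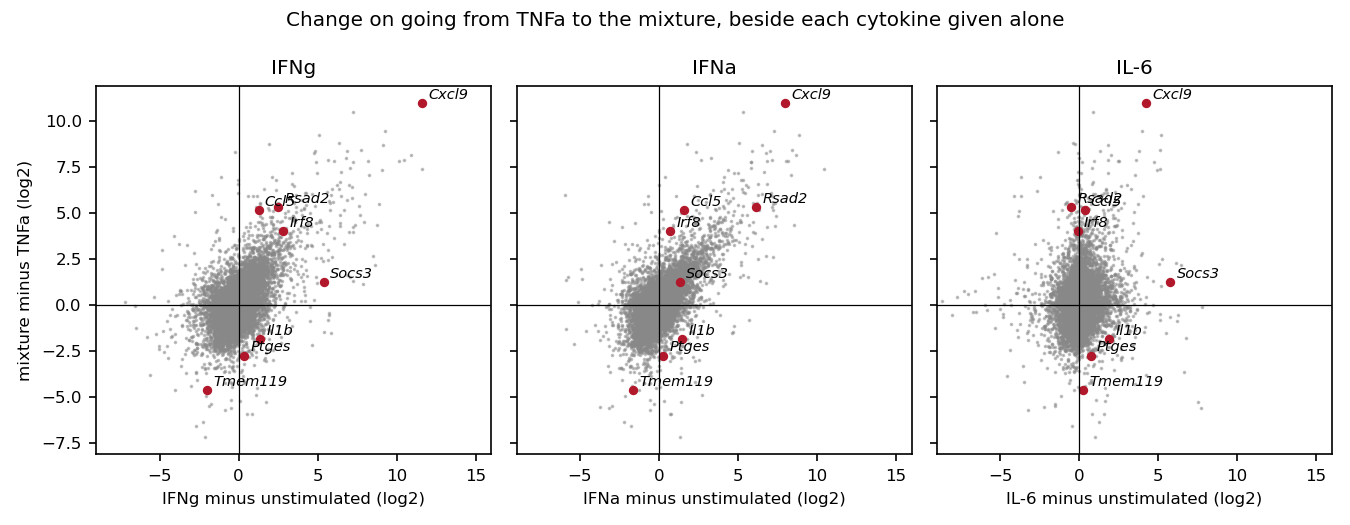
Log2 difference of the mixture from TNFa (vertical axis) against the log2 difference of IFNg, IFNa or IL-6 alone from unstimulated cultures (horizontal axes), 1 point for each of 14626 genes, with 8 genes in red. The cloud runs along the diagonal in the IFNg (r = 0.57) and IFNa (r = 0.662) panels and less so in the IL-6 panel (r = 0.156), and Ptges and Il1b lie below 0 on the vertical axis with no decrease on the horizontal ones.

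Whether a cytokine's effect differed between the settings with and without TNFa was tested by the difference between mixture minus TNFa and the cytokine alone minus unstimulated cultures. The mixture holds all of the added cytokines at once, so such a difference takes in the other additions as well as the presence of TNFa. It passed an edgeR adjusted p under 0.05 for 2009 genes (13.7%) with IFNg, 791 (5.41%) with IFNa and 3603 (24.6%) with IL-6. The IFNa count was 464 without unstimulated replicate 3, 466 without unstimulated replicate 2, 474 without IFNa replicate 1 and 510 without TNFa replicate 2. Ccl5 changed more in the mixture than in either interferon alone, by 3.85 against IFNg (SE 0.61, adjusted p = 0.00155) and by 3.51 against IFNa (SE 0.61, adjusted p = 0.00812). Irf8 exceeded its IFNa response by 3.25 (SE 0.57, adjusted p = 0.00921), while IFNg alone had raised Irf8 by 2.81. Other genes changed less in the mixture over TNFa than with the cytokine alone. Acod1 rose by 8.49 in IFNg alone and by 2.65 in the mixture over TNFa, a difference of -5.84 (SE 0.76, adjusted p = 0.000542), and TNFa alone had raised it by 8.25. Cxcl10 rose by 8.78 in IFNg alone and by 4.32 in the mixture over TNFa, a difference of -4.46 (SE 1.14, adjusted p = 0.0264). Cdc42ep2, an effector of the GTPase CDC42, was the gene with the largest such shortfall for IFNg: it had 31.6, 31.4 and 64.6 CPM in the mixture, 50.8, 59.7 and 57.8 CPM in TNFa, 38.2, 56.1 and 30.3 CPM in IFNg and 0.451, 0.724 and 1.24 CPM in unstimulated cultures. TNFa, IFNg and the mixture reached overlapping levels of Cdc42ep2, and the difference was -6.12 (SE 0.57, adjusted p = 1.54e-05).
Il1b changed in opposite directions in the 2 settings. It was higher in IFNa alone than in unstimulated cultures by 1.47 (adjusted p = 0.00282) and lower in the mixture than in TNFa by 1.86 on the log2 scale, a difference of -3.32 (SE 0.40, adjusted p = 0.000279). Siglece was at 1.00 in IFNg alone (adjusted p = 0.0541) and at -3.30 in the mixture over TNFa, a difference of -4.31 (SE 0.50, adjusted p = 1.79e-05). Ptges (0.25 in IFNa alone, difference -3.02, SE 0.53, adjusted p = 0.00705) and H2-M2 (-0.09 in IFNa alone, difference -3.54, SE 0.75, adjusted p = 0.0172) had a decrease in the mixture over TNFa and none in IFNa alone, where the level without TNFa was low to begin with. For IL-6, Socs3 rose by 5.76 alone (adjusted p = 0.000209) and stood at 1.24 in the mixture over TNFa, a difference of -4.52 (SE 0.72, adjusted p = 0.000832). Its level was 77.8, 95.2 and 128 CPM in the mixture and 167, 205 and 167 CPM in IL-6 alone, so every mixture library was below every IL-6 library.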

How the data were processed

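RNA-seq was measured in 24 mouse libraries, of which the 18 neonatal ones, 3 in each of 6 groups, entered the fit. The deposited values are whole, unnormalized counts of reads for each gene and library; per the submitters' processing notes, reads were handled with cutadapt 2.1 and STAR 2.7.1a on mm10. How reads were assigned to genes, and whether strand was used, is not given in the sources used here; per the labels' protocols the kit was NEBNext Ultra II Directional. Of 55434 genes in the table, 28481 had reads and 14626 passed edgeR's expression filter. Counts were fitted with edgeR 4.0.16 (TMM scaling, robust quasi-likelihood test, R 4.3.3) with group and replicate number as terms, and p-values were adjusted over all tested genes by Benjamini-Hochberg, with 0.05 as the threshold. The residual degrees of freedom were 10 and the common coefficient of variation 0.195. CPM is counts per 1e+06 of the TMM-scaled library total, and marker sums use the plain total. The SE is the log2 difference over the square root of the F statistic.

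The replicate number was kept as a block. The labels give each group the numbers 1, 2 and 3, and same-numbered libraries deviated together: the correlation of deviations was 0.184 to 0.687 in all 45 pairs and 0.38 to 0.682 for the 3 pairs of mixture and TNFa. With different numbers it was -0.522 to 0.223 in 90 pairs, 14 of them above 0.1, so the ranges overlapped at their ends. For the 6 such pairs of mixture and TNFa it was -0.467 to 0.184. Within the mixture group and within the TNFa group no pair of libraries was near-identical, and other pairs were not checked for this.

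Members and gene lists were chosen with earlier results of these data known. Genes named are fixed cytokine signalling genes, up to 3 higher and 3 lower called members of each list with at least 3 calls, the 8 higher and 8 lower genes with the largest change over all genes (mean log2 CPM of at least 2, no overlap between groups, no predicted genes), and 5 each way in each test of a cytokine with and without TNFa. Named outside the rule, after their values were known, were Lck, Klrk1, Flt1, Kdr, Cnp, Mbp, Csf1r, Tbk1, Birc3, Nlrp3, Cd74, Ciita, Apoe and Trem2. Alternatives were DESeq2 1.42.0, limma-voom 3.58.1, other scalings and filters, a fit without the block, a fit of only the groups compared, and leaving out each library. The fit was tested on simulated counts with known changes before use. Promoter windows are RefSeq's; only 73.7% of tested genes had one, so a comparison of motif shares between gene sets was void. Positions come from the GENCODE M21 annotation, which matched 99.57% of the table's genes. Libraries of adult mice were not analysed here, and the values of some single genes are not reported here.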

Additional observations from a re-analysis of the deposited data

Results flagged for a closer look

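The change from TNFa to the mixture differed from the change that a cytokine gave alone for 2009 genes with IFNg, 791 with IFNa and 3603 with IL-6 by a test of the difference itself (edgeR, adjusted p under 0.05). The genes below carried the largest of these differences by the naming rule, on the log2 scale as mixture minus TNFa less cytokine alone minus unstimulated.

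Against IFNg, the mixture added more for Ccl5 (3.85), the Notch ligand gene Dll1 (3.76), the matrix proteoglycan gene Vcan (3.69), Inpp1 (3.49) and Uaca (3.24). Dll1 and Inpp1 had called increases in the mixture while IFNg alone stood at -0.83 and -0.22; IFNa alone had raised both, Dll1 by 2.22 (adjusted p = 1.13e-05) and Inpp1 by 1.35 (adjusted p = 3.1e-05), and for Dll1 the difference of the mixture from IFNa was not called (0.71, adjusted p = 0.38). IFNa alone had also raised Uaca, by 3.86 (adjusted p = 4.58e-06), and its difference from IFNa was not called (0.62, adjusted p = 0.558). The mixture added less for Cdc42ep2 (-6.12), Acod1 (-5.84), Cxcl10 (-4.46), Siglece (-4.31) and Socs3 (-4.17).

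Against IFNa, it added more for Ccl5 (3.51), Wfdc17 (3.38), Irf8 (3.25), Eva1a (2.89) and Asap3 (2.80), and less for the activation marker gene Cd69 (-4.65), Acod1 (-4.11), H2-M2 (-3.54), Il1b (-3.32) and Ptges (-3.02). TNFa alone had lowered Eva1a (-2.61, edgeR adjusted p = 3.61e-06). Its mean was 23.6 CPM in the mixture and 23.3 CPM in unstimulated cultures. TNFa alone had raised Cd69 (6.84, edgeR adjusted p = 0.000127). Its mean was 594 CPM in the mixture, 99.1 CPM in TNFa and 132 CPM in IFNa alone.

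Against IL-6, it added more for Gbp4 (6.88), Cxcl11 (6.63), Cmpk2 (6.40), Asap3 (6.19) and Rsad2 (5.82), and less for Rn7sk (-8.53), Tmem119 (-4.87), Socs3 (-4.52), the eotaxin receptor gene Ccr3 (-4.24) and Nav3 (-3.91). IFNa alone had raised Rsad2 by 6.17 and Cmpk2 by 6.19, and IFNg alone had raised Gbp4 by 8.17 and Cxcl11 by 7.04. The difference of the mixture from that interferon was not called (edgeR adjusted p = 0.711, 0.797, 0.912 and 0.914). Asap3 rose by 2.32 in IFNa alone, and its difference from IFNa was called, as given above. The value for Rn7sk, a small nuclear RNA, rests on IL-6 replicates 1 and 2, which had 336 and 784 CPM, while IL-6 replicate 3 had 1.03 CPM and no mixture library exceeded 3.19 CPM. Groups of 3 libraries were too small for a test of single libraries that stand apart.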

How the results depend on the processing

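The count of 5414 genes called in mixture against TNFa lay between 4446 and 5629 in the other edgeR filters and scalings by size factors, in DESeq2, in limma-voom and in a fit of only the groups compared, was 7180 with total-count scaling, and ranged from 4564 to 4936 over fits without 1 library. Without the replicate block it was 3684, all of them among the 5414. That fit also gave 1184 genes for TNFa, 1886 for IFNg, 2118 for IFNa and 143 for IL-6 over unstimulated cultures, and 692, 86 and 1884 for the tests of IFNg, IFNa and IL-6 with and without TNFa; 21 of the 149 genes named by rule lost their call, including Tnf, Irf7, Ikbke, Fas, Ikbkg, Tnip3, Cxcl1, Ccl9 and Vsir. DESeq2 gave 1172 genes for IL-6 alone and 1284 for the IFNa test, and total-count scaling gave 1305 for the IFNa test. Over fits without 1 library, IL-6 alone ranged from 321 to 755 and the IFNa test from 464 to 1041. Total-count scaling turned the sign of Ifnar2 (-0.31), Relb (-0.33), Cxcl14 (-0.0058) and Cxcl16 (-0.026), the shift of the median of all genes being -0.343; the other causes were not tested. Over the alternatives, the values of the genes named by rule kept direction and call in 1985 cases, lost the call in 84, gained it in 13 and changed sign in 4. With 3 libraries a group, changes under 2-fold and genes near 1 CPM are the least certain.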
